A study of Mus musculus with 6 samples.

Results

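The accessibility of 44 genes of haploid spermatids and sperm was examined in samples enriched in spermatogonia, germ cells that have not yet entered meiosis. The genes were a set list of protamines, transition proteins, acrosomal and egg-binding proteins, flagellar and channel proteins, sperm isozymes, head-shaping proteins, sperm kinases and proteins that handle RNA or other proteins, and the list is by name, with no measured value in its rule. All 44 were found in the RefSeq gene table of GRCm38.p6, the build of all coordinates given here, among 21440 protein-coding genes whose 5′ end was known. ATAC-seq, which marks accessible DNA by insertion of the Tn5 transposase, had been run on 6 libraries of 50000 cells each from testes of mice at postnatal day 5. Of these, 3 came from mice without the deacetylase SIRT7 (S7KO, the Sirt7-/- genotype, constitutive and on a 129S1/Sv background) and 3 from wild-type mice of that background (WT). The labels name no treatment. The cells were obtained by enzymatic digestion and differential plating, which enriches spermatogonia without sorting them, and each replicate is stated to be a separate biological sample. Replicate numbers are those of the titles, which are 1, 2 and 4 in each genotype. Values of a genotype's libraries are given in that order. The comparison of genotypes asked if loss of SIRT7 changed where chromatin was accessible.

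Spermatogonia divide by mitosis, and their descendants pass through meiosis to become round spermatids. Spermatids then build the acrosome, a secretory cap that carries the proteins for reaching and binding the egg, and the flagellum, and they replace histones first with transition proteins and then with protamines. Many of the genes for these steps are transcribed in haploid cells, which at postnatal day 5 have not yet formed in the mouse testis. The transcription factor CREM, which binds the cAMP response element, is a known activator of such genes in spermatids.

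A gene is called open here when a deposited peak lay within 1 kb of its 5′ end in all 6 libraries. By this rule 19 of the 44 genes were open (43.2%), against 68.2% of all protein-coding genes. In 23 genes (52.3%) no library had a peak within 1 kb, against 27.7% of protein-coding genes. The remaining 2 genes, Ropn1 and Smcp, had such a peak in some libraries, as did 4.16% of protein-coding genes. Within 3 kb, 28 of the 44 genes (63.6%) had a peak in all 6 libraries, against 74%, and 11 (25%) had none in any library, against 21.8%. The list thus stood below the background at 1 kb and was closer to it at 3 kb. A peak list from many cells cannot tell a promoter that is open in a few cells from one that is weakly open in many.

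**Figure D1:**
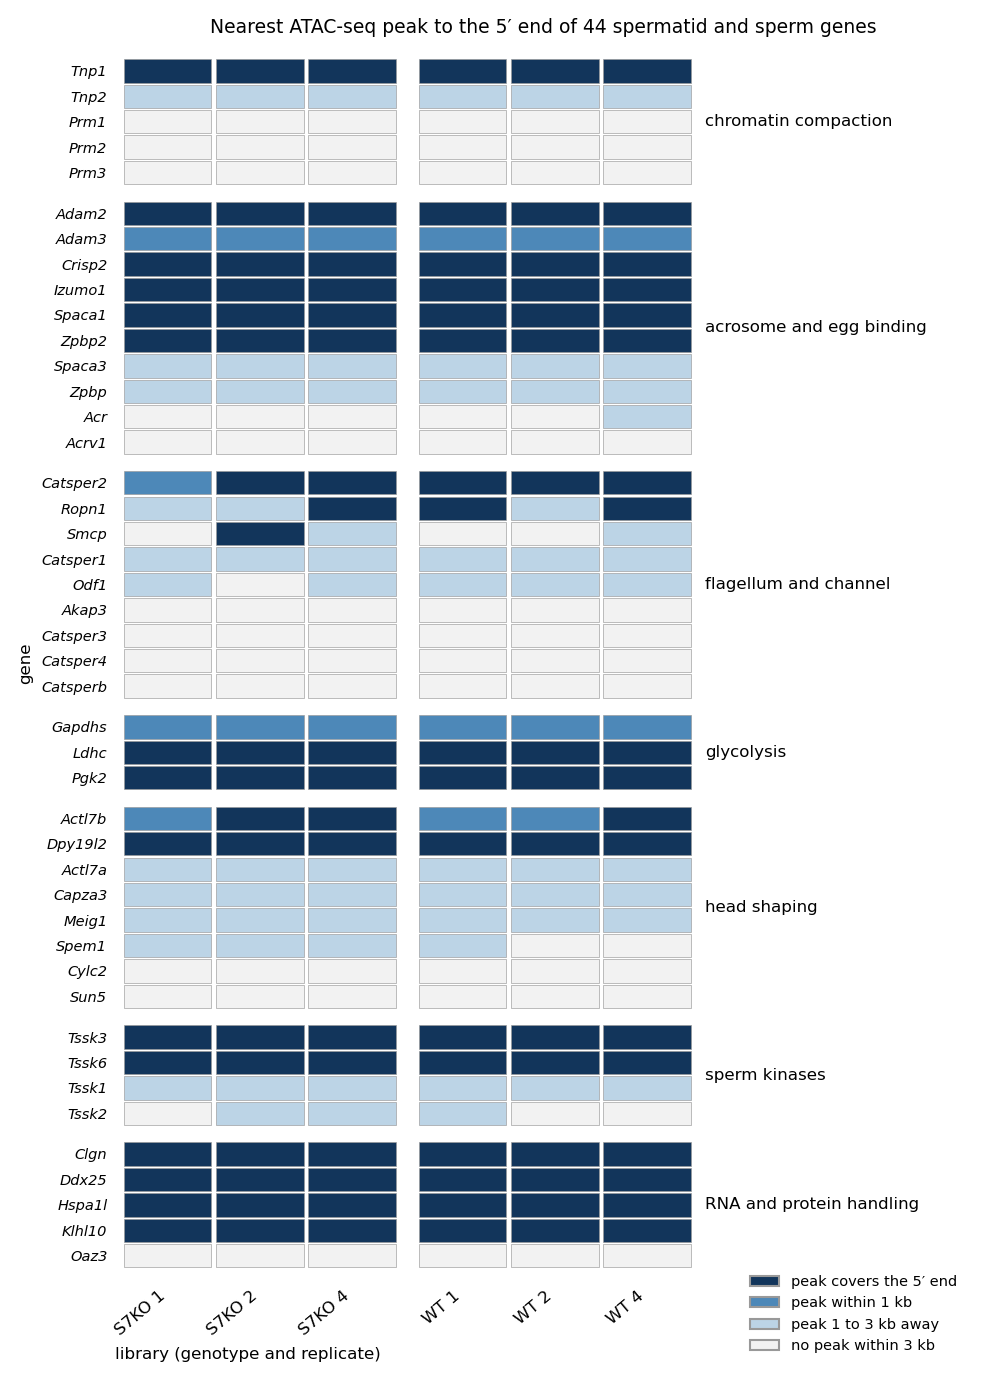
Each row is a gene, grouped by role, and each column a library, with S7KO on the left and WT on the right. The shade gives the distance from the gene's 5′ end to the nearest peak of that library. The 19 open genes have a peak within 1 kb, and the 23 others lack one, in every library of both genotypes. Among the 23, a peak 1 to 3 kb away is present in only some libraries for Acr, Odf1, Spem1 and Tssk2. Ropn1 and Smcp vary at 1 kb.

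To show what open and closed promoters of the list look like, the 250 bases before the transcript start are printed for 7 genes, from the RefSeq promoter table of GRCm38.p6, 5′ to 3′ on the gene's strand, with each CpG in capitals. CpG dinucleotides are rare in most of the mouse genome and dense in the promoters of many genes that are active in all tissues. The first 3 are the open genes with the best-ranked peaks among those with no other 5′ end within 1 kb. They are Zpbp2 (chr11:98550847-98551096, plus strand), which binds the zona pellucida, Dpy19l2 (chr9:24696294-24696543, minus strand), which holds the acrosome to the nucleus, and Izumo1 (chr7:45621561-45621810, plus strand), which mediates fusion with the egg. For Dpy19l2 the table's transcript start lies 164 bp inside the gene's annotated 5′ end.
Zpbp2: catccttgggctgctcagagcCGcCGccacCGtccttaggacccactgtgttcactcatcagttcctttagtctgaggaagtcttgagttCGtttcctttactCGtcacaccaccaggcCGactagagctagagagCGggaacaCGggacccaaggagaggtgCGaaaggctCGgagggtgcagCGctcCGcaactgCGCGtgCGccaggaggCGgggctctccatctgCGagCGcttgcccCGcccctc
Dpy19l2: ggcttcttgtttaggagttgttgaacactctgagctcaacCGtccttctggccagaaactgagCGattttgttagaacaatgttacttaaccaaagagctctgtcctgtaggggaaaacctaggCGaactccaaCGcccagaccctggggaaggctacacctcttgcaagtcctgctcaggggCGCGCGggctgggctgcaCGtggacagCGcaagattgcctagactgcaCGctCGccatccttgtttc
Izumo1: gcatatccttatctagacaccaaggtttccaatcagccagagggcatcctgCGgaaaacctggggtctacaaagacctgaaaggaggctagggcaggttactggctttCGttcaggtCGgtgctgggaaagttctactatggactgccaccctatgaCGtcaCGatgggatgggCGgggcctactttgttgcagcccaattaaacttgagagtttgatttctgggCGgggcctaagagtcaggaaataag

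The next 3 are protamine genes with no peak within 3 kb in any library. They are Prm1 (chr16:10796824-10797073), Prm2 (chr16:10792106-10792355) and Prm3 (chr16:10790915-10791164), all on the minus strand, which lie in a cluster. Prm1 and Prm2 encode the proteins that pack sperm DNA.
Prm1: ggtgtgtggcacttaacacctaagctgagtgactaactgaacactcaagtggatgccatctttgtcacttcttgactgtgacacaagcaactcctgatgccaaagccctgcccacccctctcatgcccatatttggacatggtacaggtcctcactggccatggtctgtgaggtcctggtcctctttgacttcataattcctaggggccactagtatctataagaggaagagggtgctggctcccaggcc
Prm2: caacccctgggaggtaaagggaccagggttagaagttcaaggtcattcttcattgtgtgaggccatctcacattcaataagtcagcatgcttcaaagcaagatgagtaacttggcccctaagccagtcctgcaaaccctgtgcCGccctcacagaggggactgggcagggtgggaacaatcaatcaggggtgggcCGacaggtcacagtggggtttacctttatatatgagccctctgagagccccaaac
Prm3: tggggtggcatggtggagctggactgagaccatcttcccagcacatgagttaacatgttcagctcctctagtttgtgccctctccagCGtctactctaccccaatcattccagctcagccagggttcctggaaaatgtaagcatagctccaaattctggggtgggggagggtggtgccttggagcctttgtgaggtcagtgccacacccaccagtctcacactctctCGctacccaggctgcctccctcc

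Tnp1 (chr1:73015900-73016149, minus strand), which encodes transition protein 1, is added as the open gene of the same role, a choice made after its peaks were seen.
Tnp1: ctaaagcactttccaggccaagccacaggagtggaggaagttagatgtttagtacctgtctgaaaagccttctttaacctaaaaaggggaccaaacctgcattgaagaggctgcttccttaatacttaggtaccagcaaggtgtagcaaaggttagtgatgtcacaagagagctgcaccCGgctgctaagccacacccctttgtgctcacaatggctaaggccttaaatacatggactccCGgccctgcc

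These stretches held 19 CpG in Zpbp2, 11 in Dpy19l2 and 7 in Izumo1. They held 0 in Prm1 and 2 each in Prm2, Prm3 and Tnp1.

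Across the list, 35 of the 44 genes had a promoter in that table, which runs from 250 bases before the start to 50 after it. Their median CpG ratio, the observed number of CpG over the number given by the C and G content, was 0.199, against 0.577 over 17492 promoters of protein-coding genes. Median GC content was 52.3% and 56.3%. With a ratio below 0.48 called low and above 0.75 high, 27 of the 35 promoters (77.1%) were low, 5 intermediate and 3 high, against 43.7%, 22.3% and 34.0% of the protein-coding promoters.

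Presence of a peak differed between these classes. All 8 genes of the intermediate and high classes were open, namely Crisp2, Dpy19l2, Hspa1l, Spaca1 and Tssk6 in the intermediate class, of which 90.3% of protein-coding genes were open, and Catsper2, Ddx25 and Zpbp2 in the high class, of which 94.4% were. In the low class 8 of 27 genes (29.6%) were open, against 33.6% of protein-coding genes with such promoters. Within each class the list was therefore near its background, while the list held more promoters of the low class. The 17 genes in the table with no peak within 1 kb in any library all had low ratios, from 0 in Akap3, a scaffold of the fibrous sheath of the tail, to 0.446 in Spaca3, a lysozyme-like acrosomal protein. Among the 16 open genes the ratio ran from 0.0976 in Klhl10 to 1.01 in Catsper2. Of these 16, Catsper2, Ddx25, Hspa1l, Tssk6, Klhl10, Ldhc, Tnp1 and Tssk3 had another 5′ end within 1 kb. The stretch read for Catsper2 holds the 5′ end of another gene, Pdia3, so its ratio cannot be assigned to Catsper2 alone. For Catsper2, Gapdhs, Klhl10, Ropn1, Tssk3 and Zpbp the start used by the table lay 796 to 1804 bp from the annotated end of the gene. In these genes the ratio and the call were thus taken at different places. The stretch read for Klhl10 lay outside its peak in every library. The start used for Zpbp, counted among the 17, was covered by a peak in all 6 libraries. These classes are a description, and no test was made of them.

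**Figure D2:**
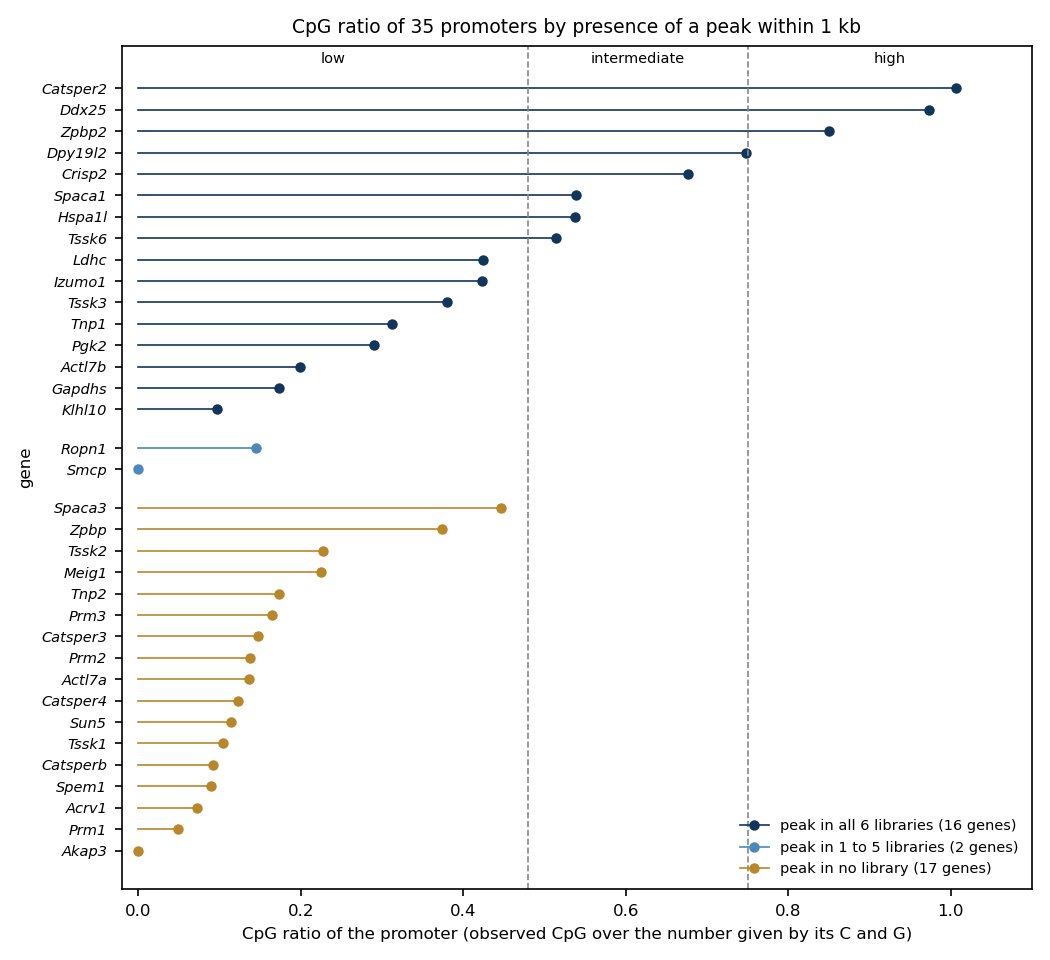
Points give the CpG ratio of the 35 promoters, a ratio without unit, with genes grouped by whether a peak lay within 1 kb in all, some or none of the 6 libraries. Dashed lines mark 0.48 and 0.75. Every gene above 0.48 belongs to the group with a peak in all 6 libraries, and low ratios occur in each group.

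Searches for the cAMP response element used its palindrome TGACGTCA and the contained core TGACG on both strands. The palindrome was found in 1 of 35 promoters (2.86%), that of Izumo1, where it starts at position -96, and in 2.33% of protein-coding promoters. The core was found in 10 promoters (28.6%), against 23.8%. These shares were near the background, and a match is not evidence of binding. Only exact matches were counted, so variants of the element were not sought. The printed stretches hold TGACTTCA in Prm1 and TGATGTCA in Tnp1, which the search did not count. How often such variants occur in other promoters was not examined.

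Chromatin compaction genes were mostly without peaks. Of 5 genes, only Tnp1 (chr1:73015074-73015899) was open. Its peak covered the 5′ end in every library, was 856, 715 and 650 bp wide in S7KO replicates 1, 2 and 4, and 858, 519 and 635 bp wide in WT replicates 1, 2 and 4. Ranked by −log10 q within its own list, where 0% is strongest and 100% weakest, this peak stood at 26.0%, 36.5% and 25.8% in S7KO and at 30.8%, 35.6% and 46.2% in WT. Widths and ranks of Tnp1 overlapped between genotypes, with the narrowest peak in WT replicate 2 and the weakest rank in WT replicate 4. The 5′ end of another gene, 1700027A15Rik, lies 137 bp away, so the peak cannot be assigned to Tnp1 alone.

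Prm1, Prm2, Prm3 and Tnp2 lie side by side on chromosome 16 and had no peak within 1 kb. They shared a single stretch without peaks that measured 27.6 kb, 27.7 kb and 28.0 kb in S7KO replicates 1, 2 and 4. In WT replicates 1, 2 and 4 it measured 28.1 kb, 28.3 kb and 28.0 kb. It was longer in every WT than in every S7KO library, but the closest values were 28.016 kb in S7KO replicate 4 and 28.023 kb in WT replicate 4. This length is set by the edges of the peaks on both sides. How often other stretches separate the genotypes was not counted, and no test was made, so no genotype difference is drawn from it. On its downstream side the stretch ended at a peak over the 5′ end of Socs1, an inhibitor of cytokine signalling, which was 2220 to 2460 bp wide. This peak lay 1883 to 2039 bp from the 5′ end of Tnp2, beyond the 3′ end of that gene, and is the reason why Tnp2 counts as having a peak within 3 kb.

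**Figure D3:**
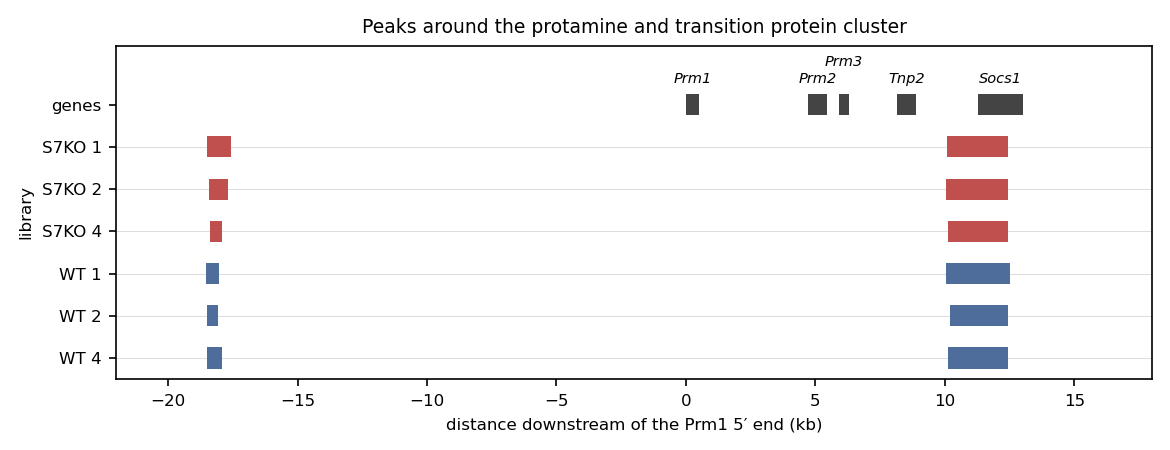
Grey boxes are genes and coloured boxes the peaks of each library, placed by distance in kb downstream of the 5′ end of Prm1. In all 6 libraries the 4 genes from Prm1 to Tnp2 lie in a gap between an upstream peak, at 42.4% to 66.3% of the lists, and the stronger peak at Socs1, at 4.75% to 6.52%.

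Genes of the acrosome and of egg binding were more often open, with 6 of 10. Zpbp2 (chr11:98551097-98558665) had a peak at 2.56%, 2.24% and 1.84% of the list in the S7KO libraries, with 1.32%, 2.78% and 1.48% in WT. The peak of Izumo1 (chr7:45621811-45627242) stood at 9.75%, 10.8% and 13.4% in S7KO and at 9.12%, 20.2% and 9.47% in WT. Both peaks covered the 5′ end in every library, and in both genes WT replicate 2 had the weakest rank while the genotypes overlapped. Spaca1, an acrosomal membrane protein, and Crisp2, a secreted cysteine-rich protein of the acrosome and tail, were also covered in every library, with median ranks of 16.7% and 23.8%. Adam2 and Adam3, surface proteins that act in binding to the egg's coat, had weaker peaks, at median ranks of 39.2% and 26.8%. The Adam3 peak lay 346 to 415 bp from the 5′ end and never covered it.

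The other 4 acrosomal genes had no peak within 1 kb. For Acr (chr15:89568326-89578853), which encodes the protease acrosin, the nearest peak was 1185 bp away in WT replicate 4 and at least 5447 bp away in the other 5 libraries. Acrv1, an acrosomal vesicle protein, had no peak nearer than 11322 bp in any library. Spaca3 had a peak 2760 to 2952 bp upstream in all 6 libraries. Zpbp, a partner of Zpbp2, had a peak 1481 to 1638 bp into the gene in all 6. The table's curated transcript start of Zpbp lies 1804 bp inside the annotated gene end and was covered by that peak in all 6 libraries, so the call for Zpbp depended on the start that was used.

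Flagellar and channel genes were the group with the smallest share of open genes, 1 of 9. CatSper is the calcium channel of the sperm tail, of which Catsper1 to Catsper4 encode pore subunits and Catsperb an accessory subunit. Catsper2 (chr2:121391633-121414598) had the promoter peak with the best median rank of the list. In S7KO replicates 1, 2 and 4 it stood at 1.23%, 2.03% and 1.99%, and in the WT replicates at 2.18%, 1.92% and 2.34%. It was 1458, 1570 and 1502 bp wide in S7KO and 1563, 1493 and 1556 bp wide in WT. Genotypes overlapped in both measures. In every library this peak covered the 5′ end of Pdia3, an enzyme of protein folding in the endoplasmic reticulum, whose 5′ end lies 696 bp away.

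Of the other pore subunits, Catsper1 had a peak 2242 to 2284 bp into the gene in all 6 libraries. Catsper3 and Catsper4 had none within 3 kb, with the nearest at 8765 bp and 10068 bp or more. By its median, Catsperb lay in the longest stretch without peaks of the list, at 348 kb with a range over libraries of 348 to 572 kb. Akap3, whose nearest peak was 3262 to 3419 bp away, also had none within 3 kb. Odf1, an outer dense fibre protein, had a peak 1987 to 2225 bp into the gene in 5 libraries and at 6788 bp in S7KO replicate 2.

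The presence of a promoter peak varied between libraries in 2 genes, both of the tail. Ropn1, a protein of the fibrous sheath, had a peak over its 5′ end in S7KO replicate 4, WT replicate 1 and WT replicate 4, with widths of 251, 328 and 244 bp and ranks of 90.3%, 90.4% and 87.9%. In the other 3 libraries its nearest peak lay 2286 to 2324 bp upstream. Smcp, a protein of the sperm mitochondrial capsule, had a peak of 384 bp over its 5′ end in S7KO replicate 2, at 97.8% of the list. These peaks were among the weakest of their lists, and neither gene followed genotype. The curated start of Ropn1 lies 1379 bp inside the annotated gene and had no peak within 1 kb in any library.

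The genes of sperm glycolysis, which supply energy for motility, were all open, 3 of 3. Ldhc encodes a lactate dehydrogenase, Pgk2 a phosphoglycerate kinase and Gapdhs a glyceraldehyde-3-phosphate dehydrogenase of sperm. Ldhc (chr7:46861263-46878147) had a peak at 29.3%, 38.6% and 36.3% of the list in the S7KO libraries, with 43.1%, 40.9% and 39.6% in WT. Pgk2 (chr17:40207018-40208609) had a peak at 23.2%, 16.4% and 24.1% in S7KO and at 27.3%, 48.9% and 32.3% in WT. In both genes the peak ranked better in every S7KO library than in every WT library. Ranks do not compare the degree of accessibility between libraries, and the widths overlapped, at 1248 to 1381 bp against 1215 to 1364 bp for Ldhc and 699 to 910 bp against 733 to 767 bp for Pgk2. The 5′ end of the gene Gm39011 lies 19 bp from that of Ldhc.

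Gapdhs (chr7:30729779-30744791) had the narrowest promoter peak of the open genes. It was 431, 567 and 517 bp wide in S7KO replicates 1, 2 and 4 and 352, 215 and 478 bp wide in WT. Its ranks were 80.2%, 85.3% and 58.9% in S7KO and 80.0%, 96.6% and 80.8% in WT. The narrowest and weakest peak was that of WT replicate 2, and the genotypes overlapped. The peak lay 248 to 791 bp from the 5′ end and never covered it. Its −log10 q was 2.31 in S7KO replicate 2 and 1.57 in WT replicate 2, so Gapdhs was not open at −log10 q of at least 3. It was also not open within 500 bp, and 18 genes were open in each of these settings.

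Among 8 genes that shape the sperm head, Dpy19l2 and Actl7b were open. Dpy19l2 (chr9:24557047-24696457) had a peak at 7.71%, 6.31% and 7.69% in the S7KO libraries, with 5.10%, 9.66% and 7.57% in WT. Actl7b, an actin-like protein, had a peak of 1818, 2153 and 1980 bp in S7KO and 1998, 1631 and 1995 bp in WT. Values overlapped between genotypes in both genes. The adjoining gene Actl7a, another actin-like protein, faces away from Actl7b, and the Actl7b peak lay 1843 to 2025 bp upstream of it. Actl7a itself had no peak within 1 kb.

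The other head-shaping genes had no peak within 1 kb. Capza3, a subunit of an actin-capping protein, had a peak 2421 to 2693 bp downstream, beyond its 3′ end, in all 6 libraries. Meig1, which takes part in transport along the spermatid's microtubules, had its nearest peak 1042 to 1174 bp upstream, over the 5′ end of Dclre1c, a nuclease of DNA repair. A further curated start of Meig1 was covered in all 6 libraries. Spem1, which is needed to strip cytoplasm from the head, had a peak 1899 to 2913 bp upstream in 4 libraries and at 3105 and 3172 bp in WT replicates 2 and 4. Sun5, which anchors head to tail, and Cylc2, a protein of the head's cytoskeleton, had none within 3 kb.

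Testis-specific serine kinases act in late spermatids, and 2 of 4 were open. The peak of Tssk6 (chr8:69902184-69903518) was the widest of the list, at 2464, 2429 and 2425 bp in S7KO replicates 1, 2 and 4 and 2456, 2396 and 2412 bp in WT. It stood at 5.92%, 5.16% and 4.88% of the list in S7KO and at 5.34%, 6.45% and 5.12% in WT. The genotypes overlapped in both measures. In every library this peak covered the 5′ end of Ndufa13, a subunit of mitochondrial complex I, which lies 374 bp away. Tssk3 had a peak of 1630, 1604 and 1453 bp in S7KO and 1502, 1489 and 1543 bp in WT, which overlapped and which covered the 5′ end of Fam229a, 540 bp away. Tssk1 had a peak 1870 to 1920 bp upstream in all 6 libraries, over the 5′ end of Dgcr2. The neighbouring Tssk2 had a peak 1219 to 1582 bp from its 5′ end in S7KO replicates 2 and 4 and WT replicate 1, and none within 3 kb in the other libraries.

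Of 5 genes that handle RNA or protein, 4 were open. Klhl10, a ubiquitin ligase adaptor, had a peak at 9.47%, 8.70% and 7.61% of the list in the S7KO libraries, with 9.21%, 9.56% and 6.44% in WT. Hspa1l, a testis heat shock protein, had a peak at 14.3%, 10.2% and 8.56% in S7KO and at 8.25%, 9.87% and 7.49% in WT. Ddx25, an RNA helicase that stores and transports messenger RNA in spermatids, had a peak at 12.3%, 9.99% and 9.35% in S7KO and at 14.7%, 13.6% and 8.30% in WT. None of these ranks separated the genotypes. The Ddx25 peak was 2005, 1901 and 1933 bp wide in S7KO and 2067, 1903 and 1773 bp wide in WT, and in every library it covered the 5′ end of Pus3, 90 bp away. Clgn, a chaperone of the endoplasmic reticulum needed to fold ADAM proteins, had a median rank of 11.8% and a neighbouring 5′ end 301 bp away. Hspa1l lies 547 bp from Hspa1a, a gene of similar sequence, and the authors kept uniquely mapped reads. Oaz3, an antizyme that restrains polyamine synthesis, had no peak nearer than 6215 bp.

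**Figure D4:**
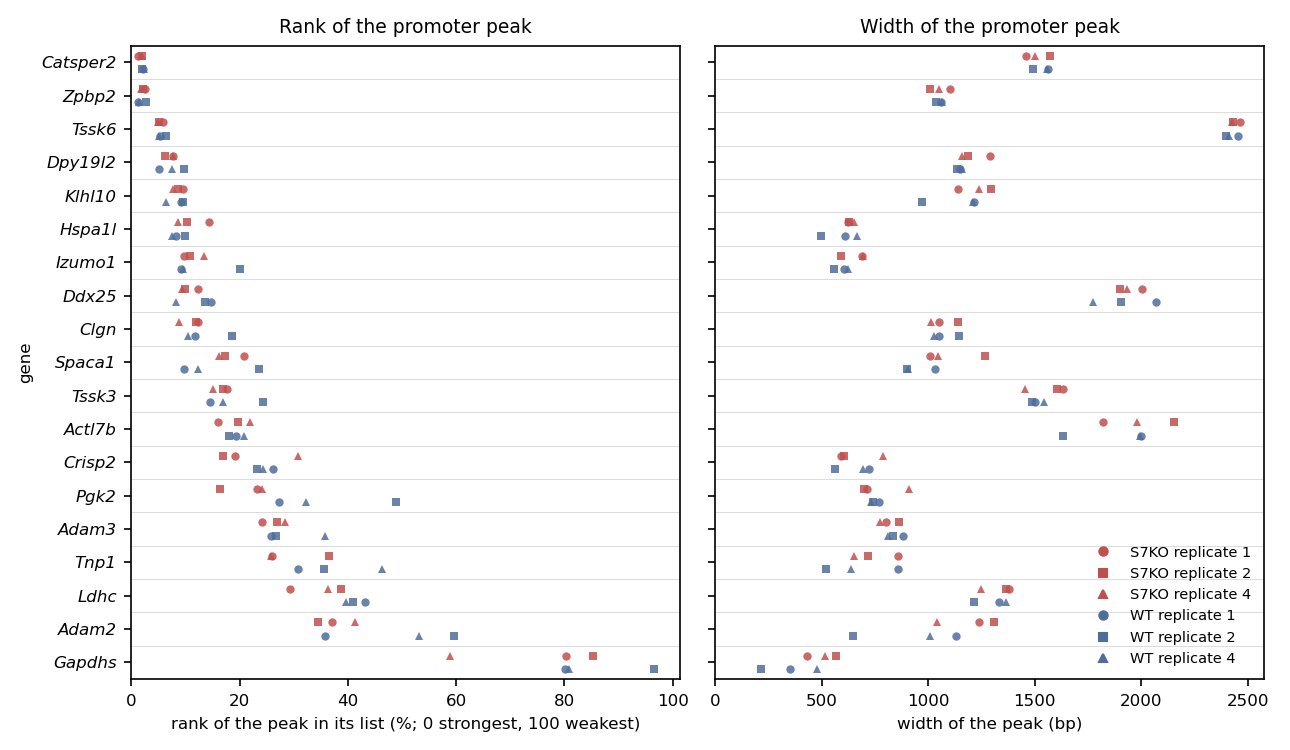
For the 19 open genes, ordered by median rank, points give the rank of the promoter peak in its list in percent (left) and its width in bp (right), with red for S7KO, blue for WT and a shape per replicate number. Ranks run from 1.23% for Catsper2 to 96.6% for Gapdhs, widths from 215 bp for Gapdhs to 2464 bp for Tssk6, and the genotypes overlap in width in every gene.

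Where present, promoter peaks of the list were by their medians narrower and weaker than those of protein-coding genes at large. The median width was 1055 bp over the 19 open genes, against 1420 bp over the 14613 open protein-coding genes, and the median rank was 16.7% against 7.71%. The rank was better than the protein-coding median in 4 of the 19, Catsper2, Dpy19l2, Tssk6 and Zpbp2, and the width was above it in 5, Actl7b, Catsper2, Ddx25, Tssk3 and Tssk6. The peak covered the 5′ end in every library in 15 of the 19.

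Genes with a neighbouring 5′ end were more often open. Of 15 genes with another annotated 5′ end within 1 kb, 9 (60%) were open, against 93.1% of protein-coding genes with such a neighbour. Of 29 genes without one, 10 (34.5%) were open, against 62.8%. The list was thus below the background in both classes.

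Pooled over the 44 genes, gene bodies also held fewer peaks per length. The 44 genes together had 48, 51 and 53 peaks between gene start and gene end in S7KO replicates 1, 2 and 4 and 51, 40 and 55 in WT. These peaks amounted to 0.370 to 0.509 per 10 kb of gene, against 0.582 to 0.726 over protein-coding genes. The total length of 1080.55 kb included Catsperb (221365 bp), Zpbp (184600 bp) and Dpy19l2 (139411 bp). These long genes held 0 or 1, 1 to 3 and 2 peaks per library, in that order. The pooled rate therefore leaned on them, and the rate over the other genes was not computed. At least 1 peak in every library was found in 27 of 44 genes (61.4%), against 78% of protein-coding genes. No peak in any library was found in 12, whose median length was 1373 bp, with a range of 407 to 15467 bp. The median length was 9059.5 bp over the 44 genes and 17547 bp over protein-coding genes. Long genes without a promoter peak could hold peaks further in, such as Cylc2, with 1 in every library, and Catsper3, with 1 or 2.

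At 1 kb the share of the list minus that of protein-coding genes was -25.6 ± 0.775 percentage points (SD, n = 6 libraries), with a range of -27.0 to -24.8 points. At 3 kb it was -6.41 ± 1.77 points and ran from -8.98 points in WT replicate 2 to -3.93 points in S7KO replicate 4. Without olfactory and vomeronasal receptor genes in the background, a choice made after seeing the data, the differences were -29.8 and -10.8 points. With peaks near either gene end counted they were -19.1 and -1.34 points, and at 3 kb S7KO replicate 4 turned to 1.61 points, so the size of the difference at 3 kb depended on which gene ends were counted. The 44 genes were a chosen list, and no test was made of these differences. The SD describes the spread between libraries of both genotypes, not between lists of genes.

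**Figure D5:**
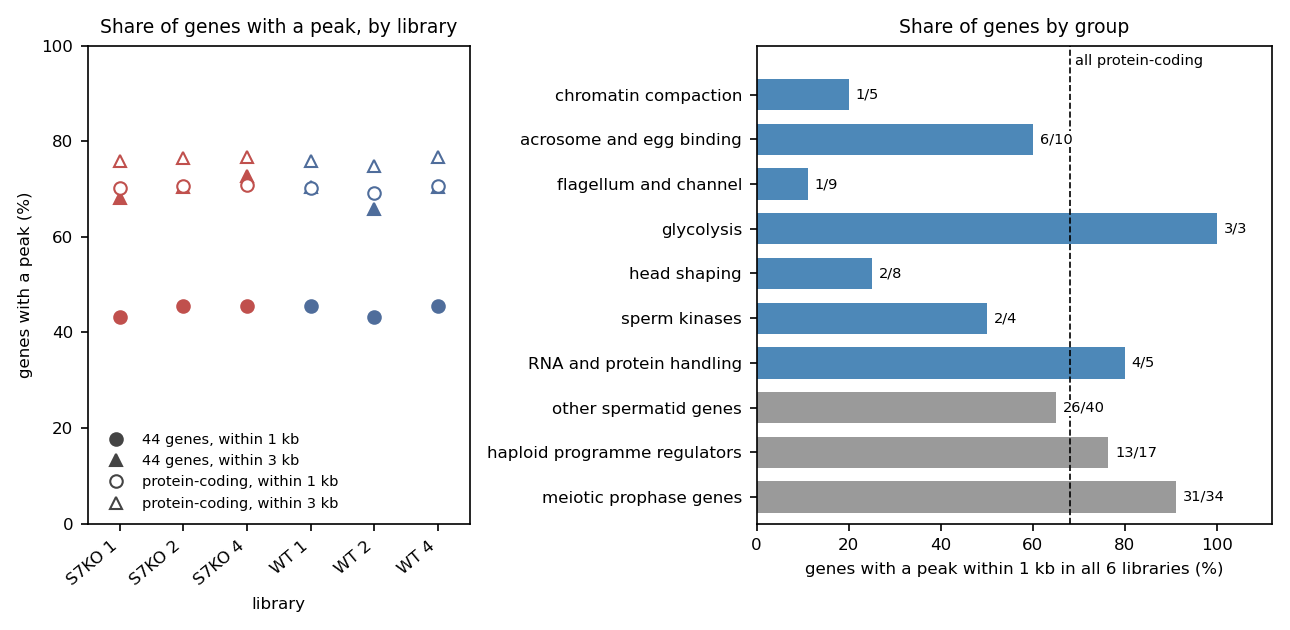
On the left, filled symbols give the percentage of the 44 genes and open symbols that of all protein-coding genes with a peak within 1 kb (circles) and 3 kb (triangles) in each library. On the right, bars give the percentage of open genes by role group (blue) and in 3 further lists (grey), with counts, and the dashed line marks the 68.2% of all protein-coding genes. Filled circles lie at 43.2% or 45.5%, below the open circles at 69.1% to 70.8%.

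Other genes of the pathway were examined for comparison, by counts. Of 40 further spermatid genes 26 were open (65%), close to the 68.2% of the background. The open ones included the flagellar tektins Tekt1, Tekt2, Tekt3 and Tekt5, but not Tekt4, and not Akap4 or Cylc1. Of 17 regulators of the haploid programme 13 were open (76.5%), among them Crem, Rfx2, Sox30 and Tbpl1, while Fhl5, a coactivator of CREM, had no peak within 3 kb. Of 34 genes of meiotic prophase 31 were open (91.2%). The 44 genes therefore had the smallest open share of these lists. Another 5′ end within 1 kb was present for 11 of the 40, 0 of the 17 and 5 of the 34 genes, against 15 of the 44. The CpG content of these other lists, and their open shares with and without such a neighbour, were not compared.

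To ask whether loss of SIRT7 changed these promoters, the libraries were compared by genotype. No gene of the list had a peak within 1 kb in all 3 S7KO and no WT library, a pattern shown by 0.0326% of protein-coding genes, or the reverse, shown by 0%. The number of the 44 genes with a peak within 1 kb was 19, 20 and 20 in S7KO and 20, 19 and 20 in WT. Means were 19.7 ± 0.577 in both genotypes (exact two-sided permutation test, p = 1, SD over n = 3 libraries per genotype). Within 3 kb they were 31 ± 1 and 30.3 ± 1.15 (exact permutation test, p = 0.7, SD over n = 3 libraries per genotype). The presence of peaks thus differed by no more than the spread between replicates.

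Widths and ranks of the 19 promoter peaks were compared next. The median width was 1103, 1185 and 1044 bp in S7KO and 1061, 969 and 1025 bp in WT. Means were 1111 ± 70.8 and 1018 ± 46.4 bp (exact permutation test, p = 0.2, SD over n = 3 libraries per genotype), so the difference of 92.3 bp did not pass the test. A peak that was wider in every S7KO than in every WT library was found in 0 of the 19 genes, against 6.86% of open protein-coding genes, and the reverse in 0, against 1.66%. With 1 library left out, such genes of either direction numbered 0 of 19 (0%, without WT replicate 2) to 5 of 19 (26.3%, without S7KO replicate 4), where the shares of open protein-coding genes were 17.5% and 17.9%. The peak ranked better in every S7KO library in 2 of 19 (10.5%), Ldhc and Pgk2, against 5.13% of protein-coding genes, and better in every WT library in 0 of 19, against 1.25%. The median rank was 15.9 ± 0.734% in S7KO libraries and 15.7 ± 4.02% in WT libraries (exact permutation test, p = 1, SD over n = 3 libraries per genotype).

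Peaks in the gene bodies numbered 50.7 ± 2.52 in S7KO libraries and 48.7 ± 7.77 in WT libraries (exact permutation test, p = 0.9, SD over n = 3 libraries per genotype). Without WT replicate 2, which had the fewest peaks of any library, the direction turned, at a difference of -2.33 peaks. Relative to protein-coding genes of the same library, the share with a peak within 1 kb was -25.8 ± 0.985 points in S7KO libraries and -25.3 ± 0.563 points in WT libraries (exact permutation test, p = 0.6, SD over n = 3 libraries per genotype). Adjusted over the 6 measures every p was 1. With 3 libraries per genotype the smallest p that this test can give is 0.1, so the design could not reach the usual threshold.

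The libraries held 105754 to 133695 peaks, with the fewest in WT replicate 2 and the most in WT replicate 4. Sequencing depth is not given in the lists and was not used here. As a check of the labelled cell type, 19 of 20 marker genes of undifferentiated spermatogonia were open, with Nanos2 the exception, and so were 10 of 10 Sertoli cell and 5 of 5 peritubular markers. Of 6 Leydig cell markers 3 were open and of 5 immune markers 1. Each of these counts changed by at most 1 gene between libraries, and 68.2% of all protein-coding genes were open. Median ranks of the marker peaks were 29.7% for undifferentiated spermatogonia, 16.9% for Sertoli cells and 22.4% for peritubular cells. They were 34.0% for Leydig cells and 30.6% for immune cells. Sertoli and peritubular marker peaks thus ranked better than those of the labelled cell type, and the counts do not set that type apart. Peaks at markers of somatic cells were thus present in every library of both genotypes, and the part of other cells in the peaks described here was not tested. By flow cytometry, shown for WT cells, the authors report that most cells after plating carried PLZF, a marker of undifferentiated spermatogonia.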

How the data were processed

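ATAC-seq peak lists of 6 libraries were used, 3 S7KO and 3 WT, grouped by the genotype label. The authors aligned trimmed reads to mm10 with Bowtie2 2.4.4.1, removed duplicates and mitochondrial reads, shifted read ends for the Tn5 cut, selected fragments by length and called broad peaks per library with MACS2 2.2.5. Each deposited list holds peak coordinates, the caller's display score, the ratio of pileup to local background (fold enrichment) and, on the −log10 scale, a p-value and a q-value per peak. No peak in the deposited lists had a q-value above 0.0983. Which fragment lengths entered the calls could not be settled from the sources used here. Reads and coverage were not used here, so depth is unknown, absence of a peak means that none passed the caller's threshold, and a differential test of read counts was not made.

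Peaks on chromosomes 1 to 19, X and Y were kept. The strand of a gene came from the RefSeq promoter table for 17492 protein-coding genes and from GENCODE genes of the same symbol and chromosome for 3948. The promoter peak was the nearest peak with at least 1 bp within 1 kb of the 5′ end, and gene body peaks overlapped the gene by at least 1 bp. Ranks used −log10 q within 1 list. Genotypes were compared by exact two-sided permutation tests over 20 assignments, with Benjamini-Hochberg adjustment over 6 measures (Python 3.11.15, SciPy 1.17.1), after checks on simulated lists. Each p-value is the share of these assignments whose difference in means is at least as large in size as the one found, for these samples only.

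The genes described with values were the open genes with the best ranks (8) or the widest peaks (5), the narrowest, those whose call differed between libraries and those with a peak 1 to 3 kb away. Values per library of Tnp1, Ldhc and Pgk2 were added after they were seen. The 44 genes and the other lists were chosen with earlier results of these data known. Promoter sequences of 9 of the 44 genes were not analysed here. Replicate numbers differ between 2 labels for some libraries and serve as names. Alternatives were leaving out each library, equal peak numbers, a stricter q, other windows, other gene starts and other background genes.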

Additional observations from a re-analysis of the deposited data

How the results depend on the processing

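With these numbers of libraries no alternative could pass the test of a genotype measure, since its p cannot go below 0.1. That p was reached once, by the median width with either gene end, at 1103.5 to 1273 bp in S7KO and 1037 to 1096.5 bp in WT (exact permutation test). Of 70 alternatives of the 5 measures that differed as reported, 51 kept the direction, 3 were at 0 and 16 turned it. The number of genes with a peak within 1 kb, whose difference was 0 as reported, was above 0 in 7 of 15 alternatives and below it in 4, from -0.5 with replicates 1 and 4 only to 0.333. For the share within 1 kb relative to protein-coding genes, the S7KO minus WT difference became 0.448 points with peak midpoints, 0.193 with either gene end, 0.226 within 500 bp and 0.288 with curated starts. For the median rank it became -0.477 points at −log10 q of at least 3, -0.624 with midpoints, -1.09 with either gene end, -2.80 without genes that have another 5′ end within 1 kb, and -0.389 with curated starts. For gene body peaks it became -1 at the stricter q and -2.5 with replicates 1 and 4 only. Curated starts and replicates 1 and 4 only were chosen after seeing the data, and the cause of these turns was not tested.

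Leaving out each library in turn, the S7KO minus WT difference ranged from -0.869 to 0.0292 points for the relative share, from -1.50 to 2.39 points for the rank and from -2.33 to 5.17 for gene body peaks. The relative share turned without S7KO replicate 1, gene body peaks without WT replicate 2, and the rank without S7KO replicate 2 (-0.133), WT replicate 1 (-0.416) and WT replicate 4 (-1.50). The width difference stayed between 55.2 and 126 bp. Open genes whose widths did not overlap between genotypes, in either direction, numbered 0 of 19 as reported, against 8.52% of open protein-coding genes. They numbered 0 to 5 of 19 when a library was left out, against 16.1% to 22.4%. They were 1 of 22 with either gene end (8.57%), 1 of 21 with curated starts (8.57%) and 4 of 19 with replicates 1 and 4 only (30.2%), with the share of protein-coding genes in parentheses.

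The difference of the list from protein-coding genes, as a mean over libraries, was below 0 in every alternative run. In single libraries it was above 0 in 1 case, at 1.61 points in S7KO replicate 4 for 3 kb with either gene end. At 1 kb it was -26.8 points with equal peak numbers, -21.0 with midpoints, -19.1 with either gene end, -28.4 without neighbouring 5′ ends, -24.0 within 500 bp, -24.4 with curated starts and -29.8 without receptor genes. At 3 kb it was -8.96, -9.15 at the stricter q, -13.2 with midpoints, -1.34 with either gene end, -8.32 with curated starts and -10.8 without receptor genes. For pooled gene body peaks per 10 kb, weighted to the longest genes, it was -0.173 with equal peak numbers, -0.160 at the stricter q and -0.247 without promoter peaks. With curated starts 21 of 44 genes (47.7%) were open, against 70.6%, since Zpbp and Meig1 gained a peak in all 6 libraries.

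Deviations of same-numbered S7KO and WT libraries in promoter calls correlated at 0.0831, 0.0648 and 0.0594 over 891 genes, so the numbers were not taken as pairing. With the replicate number as a block, the exact sign-flip test, which cannot go below 0.25, gave p from 0.25 to 1, with a width difference of 92.3 bp, and changed no call.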

Other observations

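Families beyond the 44 genes were mixed in the same way. These were singled out after their values were seen, and no test was made. Of the Izumo genes, which act at the sperm and egg membranes, Izumo1, Izumo2 and Izumo4 were open and Izumo3 had no peak within 3 kb in any library. Izumo4 had a promoter peak among the strongest, at a median rank of 0.150% of the list, and Izumo2 among the weaker ones, at 79.5%. Of the accessory subunits of the CatSper channel, Catsperd (7.48%), Catsperg2 (7.44%) and Catsperz (73.7%) were open. Catsperg1 had a peak within 3 kb but none within 1 kb, and Catsperb had neither.

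The transcription factor Crem was open at a median rank of 1.59% and Rfx2, another activator of spermatid genes, at 2.56%. Rfx4, which belongs to the same family, was open at 68.3%, while Rfx1 and Rfx3 had a peak within 3 kb in all 6 libraries and none within 1 kb of the annotated gene end. Among meiotic genes, Hspa2, a chaperone of spermatocytes, and Prdm9, the methyltransferase that sets sites of recombination, had the best ranks, at 0.197% and 0.226%. Another 5′ end lay within 1 kb in 5 of the 34 meiotic genes, so a peak may be shared. Ranks describe peak calls within a list and give no level of transcription.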
